A study of Mus musculus with 13 samples.

Results

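The minichromosome maintenance (MCM) helicase and the factors that load and start it were followed in mouse pancreas, in young mice, in old mice and in old mice that had received a transient pulse of reprogramming factors. The set held 10 genes: the 6 subunits of the MCM hexamer (Mcm2, Mcm3, Mcm4, Mcm5, Mcm6 and Mcm7), the loading factors Cdc6 and Cdt1, and Mcm10 and Cdc45, which act when the loaded helicase is started. They were chosen by name for these roles, when earlier results of these data were already known, and all 10 were found among the 23366 Entrez genes of the expression table.

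In dividing cells the origin recognition complex, together with Cdc6 and Cdt1, loads MCM hexamers onto DNA before S phase, a step known as licensing. At the start of S phase Cdc45 and the GINS complex join the hexamer to form the active helicase, and Mcm10 takes part in that activation. Most of these genes are textbook targets of the E2F transcription factors and are kept low in cells that have left the cell cycle, which includes most enzyme-secreting acinar cells of the adult pancreas.

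RNA of the whole pancreas was sequenced in 13 female mice of the reprogrammable strain i4F-B, with 1 library per mouse. All 3 groups carried the same OSKM cassette (Oct4, Sox2, Klf4 and Myc, switched on by doxycycline), which is inserted at the Pparg locus and is ubiquitous rather than specific to the pancreas. The 4 young mice (13 weeks) and the 5 old mice (55 weeks) were not given doxycycline, and the 4 old-OSKM mice received it for 1 week (7 days) and then recovered for 2 weeks. The labels give the age of the old-OSKM mice as 58 weeks, against 55 weeks for the old mice, and no group of untreated mice of 58 weeks or of doxycycline-treated mice without the cassette entered the comparison.

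Values are on the log2 scale of RPKM, a read number scaled by transcript length and by the size of the library, after quantile normalization, and the sorted values of the 13 mice differ by at most 0.0116. No counts or read totals per mouse accompany them, so the exact depth behind each value is unknown. Across all genes the mean correlation of a mouse with the others was 0.9668 in JCX1011, 0.9693 in JCX1158 and 0.9699 in JCX1025, and 0.978 to 0.981 in the other 10 mice. The acinar markers summed to 11687 to 12204 RPKM in every mouse, against 36 to 53.6 RPKM for duct markers and 78 to 490 RPKM for islet markers. Acinar genes thus hold the top ranks, whose values quantile normalization fixes (Cela2a and Ctrb1 had an SD of 0.00 in each group), so their sum says nothing of a stable acinar content. Between old-OSKM and old mice the log2 differences of the gene rows of the 4 cassette factors were 0.10 for Pou5f1, 0.06 for Sox2, 0.04 for Klf4 and -0.12 for Myc, none of which passed the test. In whole tissue, fewer cells of a type and less RNA per cell cannot be told apart.

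The promoters are shown first because the genes share a known class of regulator. RefSeq promoter windows (GRCm38.p6, the assembly of mm10) were found for 9 of the 10 genes, all but Mcm4. They were searched on both strands for the E2F-type letters TTTCCCGC, TTTGGCGC, TTTCGCGC and TTTGCCGC, which may overlap each other. These letters occurred in 6 of the 9 (Mcm3, Mcm5, Mcm6, Mcm7, Cdt1 and Cdc6) and in 2.26% of all 32851 windows, 744 in number. They were not found in the windows of Mcm2, Mcm10 and Cdc45. The letters CCAAT, the core of the NF-Y motif, occurred on either strand in 7 of the 9, all but Cdt1 and Cdc6, and in 37.4% of all windows. Below are the 160 bases before the start site of Mcm5, Mcm6 and Cdc6, as examples with a match before the start, and of Mcm2, as an example without one. In the differences with age given later, Mcm7 has matches and the smallest difference, and Cdc45 has none and the largest. With the pulse the largest differences were those of Cdc6, Mcm5, Mcm6 and Mcm3, which have matches, and Mcm2, without one, had the smallest. Cdt1 and Mcm7, with matches, differed less there than Mcm10 and Cdc45, without one. A relation between matches and differences was not tested. Each printed sequence runs 5′ to 3′ on the strand of its gene, and capitals mark the E2F-type letters. They lie at chr8:75109349-75109508 (+ strand) for Mcm5, chr1:128359706-128359865 (- strand) for Mcm6, chr11:98907991-98908150 (+ strand) for Cdc6 and chr6:88898781-88898940 (- strand) for Mcm2.
Mcm5: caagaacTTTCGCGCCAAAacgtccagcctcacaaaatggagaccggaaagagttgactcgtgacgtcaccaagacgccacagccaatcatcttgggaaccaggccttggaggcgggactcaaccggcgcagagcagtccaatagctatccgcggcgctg
Mcm6: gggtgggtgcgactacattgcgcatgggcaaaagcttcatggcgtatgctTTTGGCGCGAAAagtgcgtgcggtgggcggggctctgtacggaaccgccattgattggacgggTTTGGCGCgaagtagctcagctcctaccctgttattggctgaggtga
Cdc6: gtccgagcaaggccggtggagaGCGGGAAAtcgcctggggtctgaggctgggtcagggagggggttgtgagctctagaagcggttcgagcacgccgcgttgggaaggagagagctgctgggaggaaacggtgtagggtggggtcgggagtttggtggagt
Mcm2: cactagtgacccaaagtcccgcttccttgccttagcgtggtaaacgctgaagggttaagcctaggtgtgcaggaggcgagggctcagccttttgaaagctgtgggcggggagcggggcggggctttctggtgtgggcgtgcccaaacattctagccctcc
In Mcm5 the capitals are 2 overlapping matches on opposite strands, which begin 153 and 149 bases before the start. Mcm6 holds the same arrangement at 110 and 106 bases and a further match at 47 bases before the start. The match of Cdc6 begins 138 bases before the start, that of Cdt1 32 bases after it, those of Mcm3 19 and 38 bases after it, and those of Mcm7 165 bases before and 16 bases after it. A match describes letters, and says nothing of binding in these mice.

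The licensing genes were expressed at low levels, and their order was much the same in the 3 groups. Over the 13 mice the mean level (log2 RPKM) was highest for Mcm2 (0.19) and Mcm7 (0.12), followed by Mcm6 (-0.26), Mcm4 (-0.62), Mcm3 (-1.0), Cdt1 (-1.06), Mcm5 (-1.51), Cdc45 (-1.70), Cdc6 (-2.62) and Mcm10 (-3.59). The differences between Mcm2 and Mcm7, Mcm7 and Mcm6, Mcm3 and Cdt1, and Mcm5 and Cdc45 did not exceed their SD over mice, so these neighbours were not separated. Cdc6 and Mcm10 were so low that several mice shared nearly the same value, and such repeated values mark no difference between those mice. In Mcm10 5 of the 13 mice lay between -4.36 and -4.32, and in Cdc6 the mice JCX1158 and JCX1003 lay at -4.32 and -4.30.

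In the sentences that follow, values are log2 RPKM in the young mice JCX1155, JCX1163, JCX1158 and JCX1164, then in the old mice JCX1000, JCX1001, JCX1002, JCX1051 and JCX1003, and then in the old-OSKM mice JCX1025, JCX1027, JXC384 and JCX1011. Mcm5, the subunit that forms the gate of the ring with Mcm2, was at -1.50, -0.76, -1.51 and -1.46 in young mice, at -1.48, -1.99, -2.45, -2.13 and -2.17 in old mice, and at -0.20, -0.83, -1.40 and -1.69 in old-OSKM mice. Among the old mice JCX1000 lay within the range of the young mice and the other 4 lay below every young mouse, and 3 of the 4 old-OSKM mice lay above every old mouse. Mcm6 was at -0.01, 0.35, -0.14 and -0.38 in young mice, at -0.66, -0.34, -0.55, -1.0 and -0.80 in old mice, and at 0.78, 0.06, -0.17 and -0.46 in old-OSKM mice. Its groups overlapped through 1 mouse on each side, the old mouse JCX1001 against the young mouse JCX1164 and against the old-OSKM mouse JCX1011. Mcm3 was at -0.95, -0.63, -1.27 and -1.10 in young mice, at -1.15, -1.58, -0.90, -1.42 and -1.44 in old mice, and at -0.07, -0.40, -1.18 and -0.94 in old-OSKM mice. Here JCX1025 and JCX1027 were above every old mouse and every young mouse, while the other two old-OSKM mice lay within the range of the old mice.

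Mcm4, which with Mcm6 and Mcm7 forms the core with helicase activity, was at -0.61, -0.33, -1.05 and -0.47 in young mice, at -0.60, -0.70, -0.62, -1.06 and -0.97 in old mice, and at 0.07, -0.26, -0.83 and -0.57 in old-OSKM mice. Mcm7 was at -0.08, 0.31, 0.10 and 0.27 in young mice, at 0.14, -0.01, 0.06, -0.03 and 0.03 in old mice, and at 0.55, 0.14, 0.07 and 0.04 in old-OSKM mice. The old values of Mcm7 were the tightest of the set, with an SD of 0.07 (n = 5). Mcm2 was at 0.25, 0.56, 0.20 and 0.13 in young mice, at 0.32, 0.14, 0.19, -0.17 and 0.05 in old mice, and at 0.52, 0.54, 0.53 and -0.75 in old-OSKM mice. In Mcm2 3 of the old-OSKM mice were nearly equal and above all old mice, and JCX1011 was the lowest of all 13 mice.

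The loading factor Cdc6, an ATPase that recruits the hexamer to the origin recognition complex, was at -1.68, -1.34, -4.32 and -2.55 in young mice, at -2.44, -2.74, -2.88, -3.61 and -4.30 in old mice, and at -1.70, -1.50, -2.39 and -2.58 in old-OSKM mice. In old-OSKM mice 3 of the 4 values were above every old mouse, and the young mice spanned nearly the whole range. Cdt1, the partner of Cdc6 in loading and the target of the inhibitor geminin, was at -0.82, -0.45, -1.54 and -1.0 in young mice, at -1.13, -1.63, -1.16, -1.41 and -1.11 in old mice, and at -0.43, -0.35, -0.92 and -1.79 in old-OSKM mice. The same 3 old-OSKM mice were above every old mouse, and JCX1011 was below every old mouse. Cdc45, which joins the hexamer in the active helicase, was at -1.09, -0.77, -1.71 and -1.55 in young mice, at -1.55, -1.92, -3.41, -1.95 and -1.75 in old mice, and at -1.88, -1.07, -1.57 and -1.91 in old-OSKM mice. The old mouse JCX1002 stood far below the rest. Mcm10 was at -3.61, -3.19, -4.36 and -2.97 in young mice, at -4.33, -4.36, -3.22, -4.35 and -3.24 in old mice, and at -2.60, -2.33, -4.32 and -3.79 in old-OSKM mice, where JCX1025 and JCX1027 were above every other mouse.

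**Figure D1:**
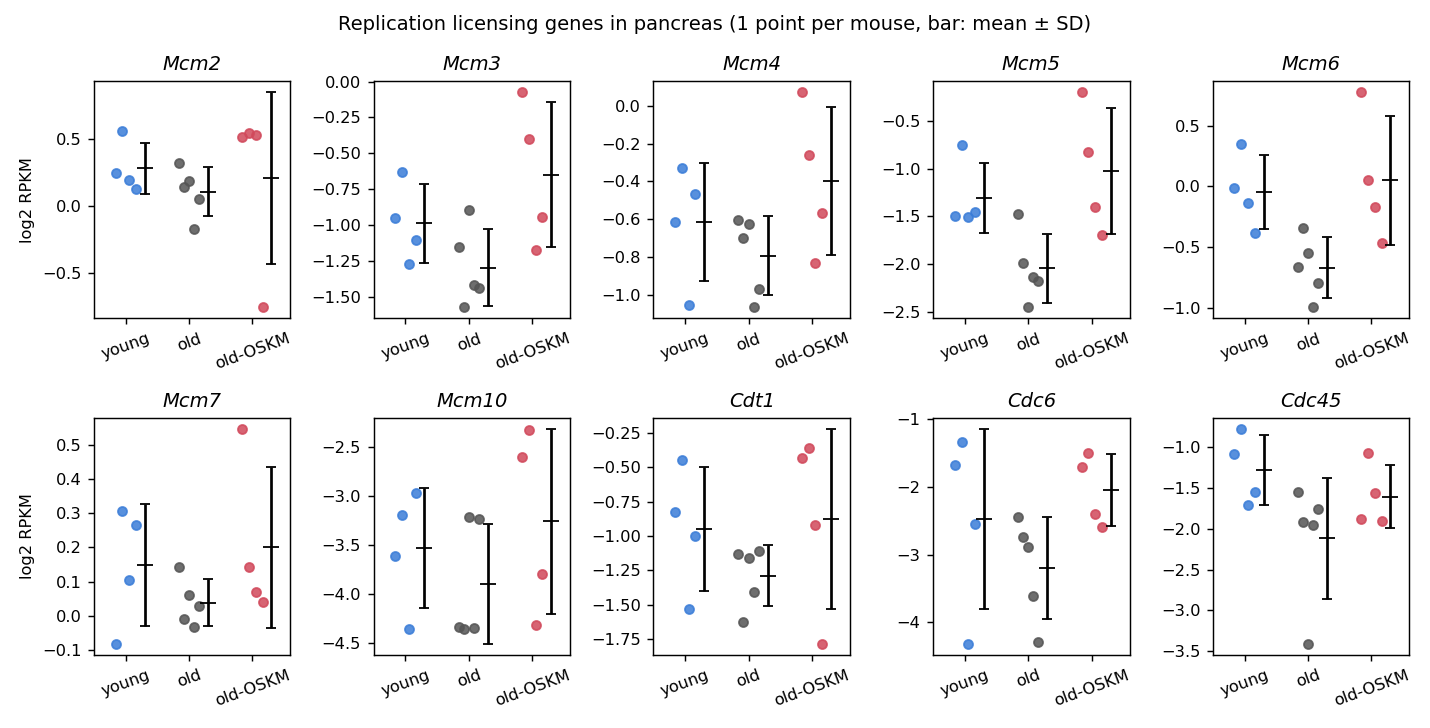
Level of each licensing gene in log2 RPKM (vertical axis) in 4 young, 5 old and 4 old-OSKM mice, with 1 point per mouse and the mean ± SD beside each group. The old points sit lowest on average in each panel, and the old-OSKM points spread widest in 8 of 10 panels when set against the old ones. The highest old-OSKM point is that of JCX1025 or JCX1027 in each panel, but in Cdc45 JCX1025 lies at -1.88, below every young mouse.

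The first comparison asked how the licensing genes differ with age. All 10 had a lower mean in old than in young mice, where 45.5% of all genes did, but none passed the call rule, which asked for an unadjusted limma p under 0.01 together with a fold change over 1.5. Of all genes 0.886% passed this rule, and 0.437% passed it with a lower level in old mice. None of the 10 had an adjusted p under 0.05, which 0.0813% of all genes had. The median log2 difference of the 10 genes was -0.35, against 0.00 (0.00125) over all genes. The 10 genes were measured in the same mice and varied together, so that their common direction is not 10 separate observations.

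With an unadjusted limma p under 0.05, which 2.52% of all genes reached in the direction of lower in old mice, there were 3 licensing genes. Cdc45 averaged -1.28 ± 0.43 (SD, n = 4) among the young and -2.12 ± 0.74 (SD, n = 5) among the old mice. Its limma difference was -0.83 (SE 0.36, 95% interval -1.62 to -0.05, adjusted p = 0.845). With a mouse left out in turn it ran from -0.98 to -0.51, and the old mean of Cdc45 includes the outlying mouse JCX1002 (-3.41). Mcm5 was at -1.31 ± 0.36 (SD, n = 4) against -2.05 ± 0.36 (SD, n = 5). The difference was -0.74 (SE 0.30, 95% interval -1.39 to -0.09, limma adjusted p = 0.806). Mcm6 was at -0.05 ± 0.30 (SD, n = 4) against -0.67 ± 0.25 (SD, n = 5). The difference was -0.62 (SE 0.23, 95% interval -1.14 to -0.11, limma adjusted p = 0.745). As linear ratios these 3 genes were at 0.561, 0.598 and 0.649 of the young mean. The other 7 had intervals that included 0, with differences of -0.72 for Cdc6, -0.37 for Mcm10, -0.34 for Cdt1, -0.31 for Mcm3, -0.18 for Mcm2 and for Mcm4, and -0.11 for Mcm7. In no licensing gene were the young and old groups free of overlap, where 2.71% of all genes were. Mcm6 passed the call rule with the old-OSKM mouse JCX1025 out of the fit, at the same difference.

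The second comparison asked how the licensing genes differed between old mice with and without the pulse of reprogramming factors. Mcm5 rose 2.02-fold in old-OSKM mice and was the only licensing gene called, where 0.753% of all genes passed the rule and 0.582% passed it upward. All 10 genes had a higher mean in old-OSKM mice, where 36.9% of all genes did, and their median log2 difference was 0.57, against -0.04 (-0.0386) over all genes. The old mice are the same in this and the previous comparison, so a chance low value in an old mouse moves both comparisons in opposite directions, and the opposite signs are not independent of each other.

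In old-OSKM mice the mean of Mcm5 was -1.03 ± 0.66 (SD, n = 4), and its limma difference was 1.02 (SE 0.30, 95% interval 0.37 to 1.67, adjusted p = 0.547). The call was lost when either of the old-OSKM mice JCX1025 (0.74) and JCX1027 (0.95) or any of the old mice JCX1002 (0.92), JCX1051 (1.0) and JCX1003 (0.99) was left out. Just outside the threshold were Mcm6, with a difference of 0.72 (SE 0.23, 95% interval 0.21 to 1.23, limma adjusted p = 0.547), and Mcm3, with 0.65 (SE 0.23, 95% interval 0.15 to 1.15, limma adjusted p = 0.547). These 3 genes had an unadjusted p under 0.05, which 3.98% of all genes reached in the upward direction. Without JCX1011 the difference of Mcm6 was 0.89 and without JXC384 that of Mcm3 was 0.83, and both then passed the rule.

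Cdc6 had the largest fitted difference of the 10, 1.15, but its interval ran from -0.11 to 2.42 (limma adjusted p = 0.566), and its level was -2.04 ± 0.53 (SD, n = 4) against -3.19 ± 0.75 (SD, n = 5). The remaining genes had intervals that included 0, with differences of 0.64 for Mcm10, 0.51 for Cdc45, 0.41 for Cdt1, 0.39 for Mcm4, 0.16 for Mcm7 and 0.10 for Mcm2. The value of Mcm2 rested on which mouse was in the group. Without JCX1011 it was 0.42, which is a fold change under 1.5 and not a call, and without any 1 of the other old-OSKM mice it was between -0.01 and 0.00. No gene of the set had old-OSKM and old groups free of overlap, where 1.73% of all genes did, and none had an adjusted p under 0.05, where 0.00428% did.

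The third comparison set old-OSKM against young mice. None of the 10 was called, where 0.625% of all genes were, none had an unadjusted limma p under 0.05, where 5.07% did, and none an adjusted p under 0.05, where 0.0428% did. Every gene of the set had overlapping groups, and 1.9% of all genes did not overlap. The mean was higher in old-OSKM mice for 8 genes, where 38.7% of all genes had a higher mean, and lower for Mcm2 and Cdc45. The fitted differences ran from -0.33 for Cdc45 (95% interval -1.15 to 0.50) to 0.43 for Cdc6 (95% interval -0.91 to 1.76). For Mcm5 the difference was 0.28 (95% interval -0.41 to 0.96) and for Mcm6 it was 0.10 (95% interval -0.45 to 0.64). Intervals of this width leave room for a difference in either direction, and the missing calls do not show that the groups were alike.

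**Figure D2:**
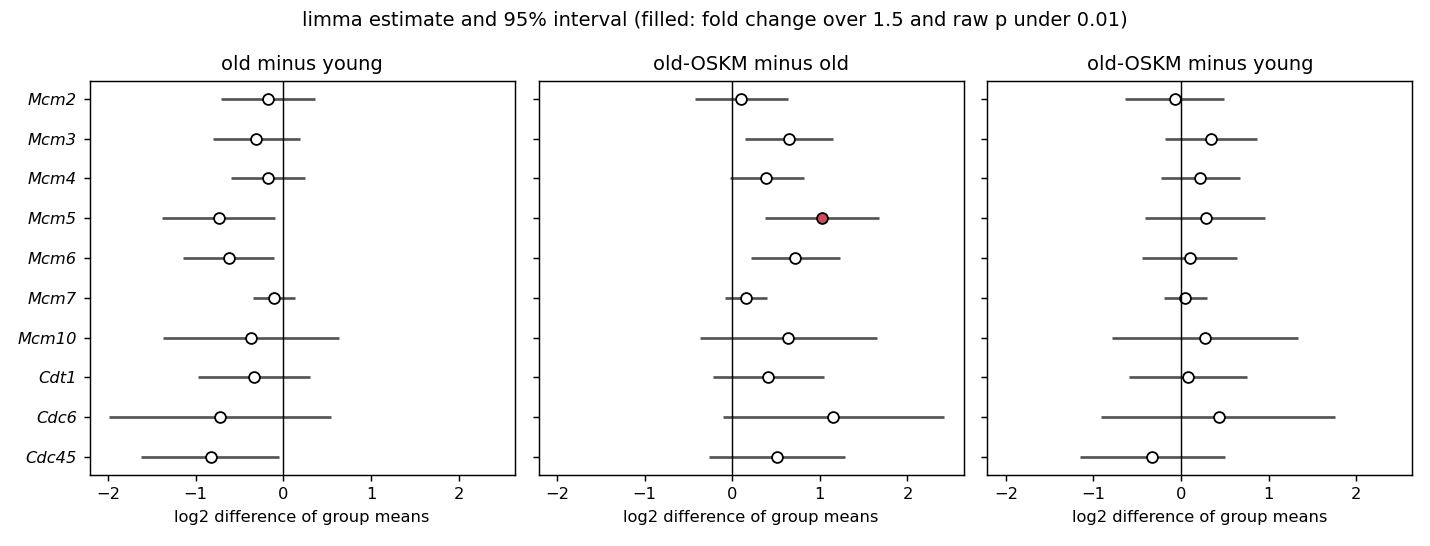
Log2 difference of group means (horizontal axis) of each licensing gene in the 3 comparisons, with points at the limma estimate, lines for the 95% interval and a filled point for a gene that passed the call rule. In old minus young all 10 points lie below 0 and in old-OSKM minus old all 10 lie above 0, and Mcm5 at 1.02 is the only filled point.

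The hexamer contains its 6 subunits in equal number, so their relative RNA levels were compared within each mouse. Mcm5 was the lowest of the 6 in all 13 mice. The log2 distance between the highest and the lowest subunit was 1.62 ± 0.20 in young mice (SD, n = 4), 2.18 ± 0.30 in old mice (SD, n = 5) and 1.5 ± 0.42 in old-OSKM mice (SD, n = 4). The old mice lay between 1.80 and 2.64, above all young mice (1.32 to 1.75) and overlapping the old-OSKM mice (0.98 to 1.93). This distance was described after the subunits' own values were known, and it was not tested. The level of Mcm7 minus that of Mcm5 was 1.45 ± 0.29 in young, 2.08 ± 0.33 in old and 1.23 ± 0.45 in old-OSKM mice (SD, with the same n). RPKM is divided by transcript length, but a share of reads that cannot be placed in one gene or isoform can still differ between subunits.

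**Figure D3:**
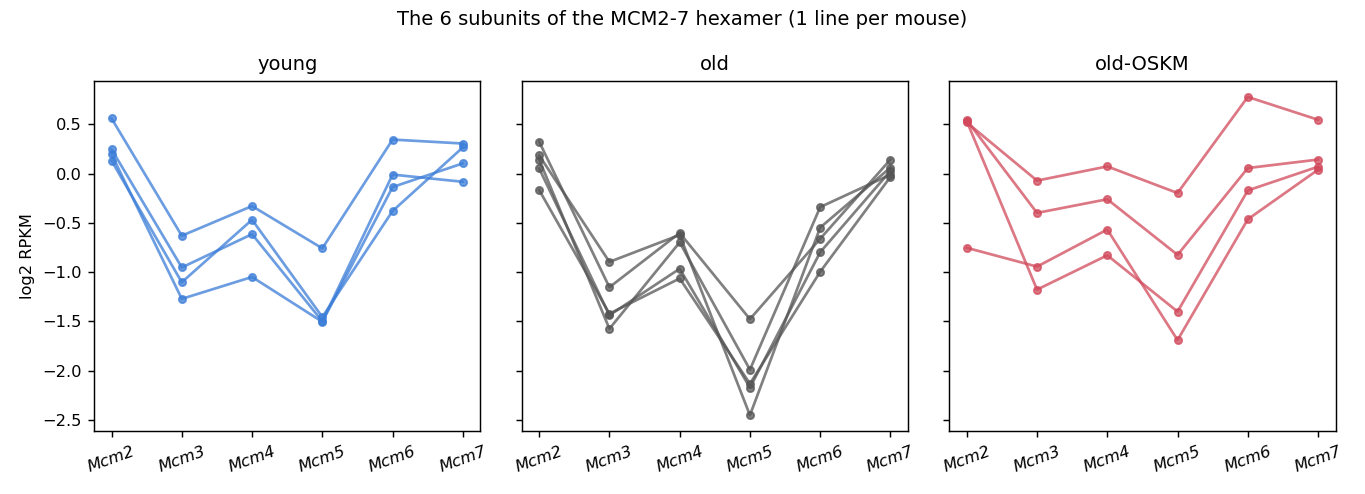
Level in log2 RPKM (vertical axis) of Mcm2, Mcm3, Mcm4, Mcm5, Mcm6 and Mcm7 (horizontal axis), with 1 line per mouse and 1 panel per group. Mcm5 is at the bottom of every line, and the log2 distance from highest to lowest subunit is 1.80 to 2.64 in old and 0.98 to 1.93 in old-OSKM mice, where JCX1011 departs from the others with Mcm2 at -0.75.

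Within the young and the old-OSKM groups, mice differed from each other in most licensing genes together. Among the old mice the highest and lowest values of the genes were spread over more mice. The mean of the 10 genes (log2 RPKM) was -1.08 ± 0.38 for the young (SD, n = 4), -1.52 ± 0.15 for the old (SD, n = 5) and -0.94 ± 0.46 for the old-OSKM mice (SD, n = 4). Among the old-OSKM mice it was -0.50 in JCX1025, -0.60 in JCX1027, -1.22 in JXC384 and -1.45 in JCX1011, and the old mice lay between -1.71 and -1.29. JCX1025 had 9 of the 10 genes above every old mouse, where 16.8% of all its genes were, and JCX1027 had 9 as well, where 14.5% were. JXC384 had 5 (34.8% of all genes) and JCX1011 had 1 (24.2% of all genes). Higher means of the old-OSKM group therefore came mostly from JCX1025 and JCX1027, which also exceeded every young mouse in 7 and 4 of the genes.

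Young mice were uneven as well, but less so. The median SD of the 10 genes was 0.34 in young, 0.26 in old and 0.53 in old-OSKM mice. JCX1163 was the highest young mouse in 9 of the 10 genes and above every old mouse in all 10, where 36.3% of all its genes were. JCX1158 was the lowest young mouse in 7, with 1 gene above every old mouse (12.2% of all genes). Summed over the 10 genes the level was 5.13 to 7.84 RPKM in young, 4.21 to 5.49 RPKM in old and 4.64 to 8.97 RPKM in old-OSKM mice. The SD was larger in old-OSKM than in old mice for 8 of the 10 genes, where 77.3% of all genes had the larger SD in old-OSKM mice. The wider spread was thus near the background of the table.

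Over the 13 mice, all 45 pairs of licensing genes had a Pearson correlation above 0, with a median of 0.67, and 18 pairs were above 0.7. These points share the library, the group and the normalization of each mouse, and the values are a description. The highest were Mcm3 with Mcm4 (0.89), Mcm5 with Mcm6 (0.88) and Mcm4 with Cdc6 (0.82). Cdc45 (median 0.33 with the others) and Mcm2 (0.44) followed the others least. Among 11629 other genes with a mean log2 RPKM above -1, the 10 whose level over the 13 mice was most like the mean z-score of the set were Rbbp4 and Sri (0.92 each), Smc4 (0.91), Slfn9 (0.87), Rfc5, Ttyh3 and Atad2 (0.83 each), Smc2 and Rpa1 (0.81 each) and Tsn (0.80). Rfc5 is a subunit of the clamp loader, Rpa1 binds single-stranded DNA, Smc2 and Smc4 belong to condensin, and Rbbp4 is a histone chaperone subunit.

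The other replication genes were taken from lists by role. Of the 6 subunits of the origin recognition complex, which marks origins for loading, none was called between old and young mice, and Orc1 rose by 0.83 (limma adjusted p = 0.547) in old-OSKM against old mice. The levels of Orc1 were low, with a mean log2 RPKM of -3.98 in old and -3.15 in old-OSKM mice. The median log2 difference of the complex was -0.04 with age and 0.11 with the pulse. Of 13 genes of licensing control and helicase firing, 10 had a lower mean in old than in young mice and 9 higher in old-OSKM than in old mice, with medians of -0.14 and 0.16. Gins3, a subunit of the GINS complex, fell by 0.63 with age (limma adjusted p = 0.551), and its young and old values did not overlap. It rose by 0.60 in old-OSKM mice (limma adjusted p = 0.547). Mtbp, a partner of the firing factor treslin, was not called, with differences of -0.50 and 0.56 (limma adjusted p = 0.775 and 0.547), nor was Gins4 (-0.26 with age) or Gins2 (0.67 with the pulse). Among 4 other members or partners of the MCM family none was called, with differences in old-OSKM against old mice of 0.30 for Mcm9 and 0.14 for Mcmbp.

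None of the 12 DNA polymerase and primase genes was called between old and young or between old-OSKM and old mice, and their medians were -0.06 with age and 0.04 with the pulse. The lowest unadjusted p in the second comparison were those of Prim1 (-0.54) and Pola1 (0.28), which point in opposite directions although both encode subunits of the DNA polymerase alpha-primase complex. None of 9 genes of the sliding clamp, its loader and the single-strand binding protein was called, with medians of -0.05 and 0.18, and Pcna, the clamp itself, differed by 0.21 in old-OSKM against old mice (limma adjusted p = 0.547). Of 11 lagging strand and fork factors, 10 had a lower mean in old than in young mice and 10 higher in old-OSKM than in old mice, with medians of -0.21 and 0.24. The one called was Timeless, which protects stalled forks. It fell by 0.71 with age (limma adjusted p = 0.581) and rose by 0.80 in old-OSKM mice (limma adjusted p = 0.547), and its old and old-OSKM values did not overlap.

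Of a list of 13 genes, the E2F factors with their DP partners and the pocket proteins Rb1, Rbl1 and Rbl2 that bind them, E2f3 fell by 0.75 with age (limma adjusted p = 0.561). E2f1, an activator of S-phase genes, was at a mean of -0.41 in young, -0.99 in old and -1.03 in old-OSKM mice, a difference of -0.59 with age (limma adjusted p = 0.764) that was not called. No gene of this list was called between old-OSKM and old mice, and the list's median difference there was -0.01. Its members with an unadjusted limma p under 0.05 were E2f8 (0.95) and E2f7 (0.81), which are known as repressors, and E2f5 (-0.23, with a fold change under 1.5). The levels of E2f8 and E2f7 were low, with means of -3.90 and -4.16 in old mice. Of 10 genes of licensing factor turnover, Dtl, the substrate receptor that targets Cdt1 for destruction, rose by 1.61 in old-OSKM mice (limma adjusted p = 0.547), from a mean of -4.03 to -2.42, without overlap of the groups. The old mean of Dtl lay near the repeated low values of Mcm10 and Cdc6, so the size of its rise is uncertain. The median of that list was -0.01 in both comparisons.

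**Figure D4:**
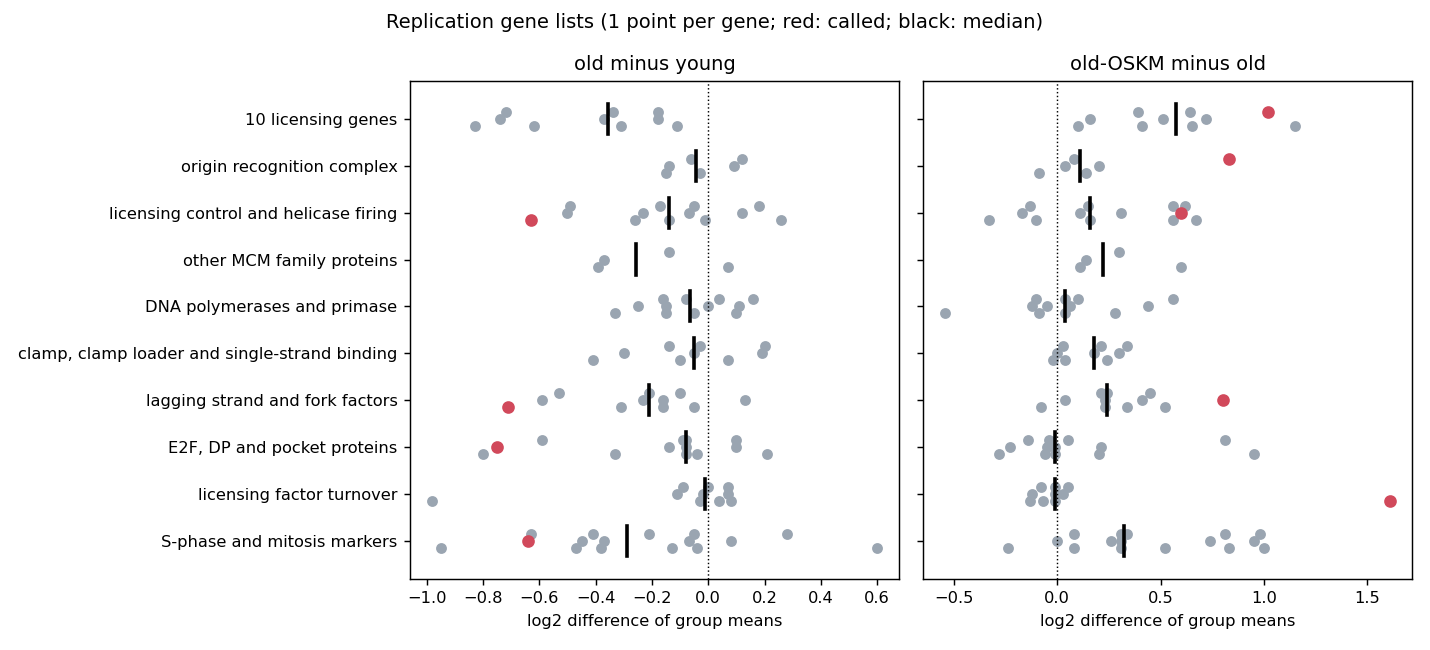
Log2 difference of group means (horizontal axis) of the genes of each replication list (vertical axis), with 1 point per gene, red for a gene that passed the call rule and a black line for the median. The 10 licensing genes have the median farthest from 0 in both panels (-0.35 and 0.57), and the E2F, DP and pocket protein, turnover and polymerase lists have medians between -0.08 and 0.04.

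Markers of cycling cells and of other cell types were set beside the licensing genes. Of 16 S-phase and mitosis markers, 13 had a lower mean in old than in young mice and 15 higher in old-OSKM than in old mice, with medians of -0.29 and 0.33. Ccne1, the cyclin E that acts at S-phase entry, fell by 0.64 with age (limma adjusted p = 0.118) and its groups did not overlap. None was called in old-OSKM against old mice, where Bub1 differed by 0.98 and Ccne1 by 0.31 (limma adjusted p = 0.547 for both). The level of Bub1 was low, with a mean log2 RPKM of -3.89 in old mice. Tk1, the thymidine kinase of S phase, rose by 0.80 in old-OSKM against young mice (limma adjusted p = 0.706). Summed over the 16 markers the level was 6.69 to 8.08 RPKM in young, 6.76 to 6.96 RPKM in old and 6.87 to 12.8 RPKM in old-OSKM mice, with the highest value in JCX1025.

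JCX1025 was also the old-OSKM mouse with the most immune cell RNA. Its T cell markers summed to 8.87 RPKM, against 1.45 to 2.9 RPKM in old mice, and 10 of the 10 T cell markers had a higher mean in old-OSKM mice, none of them called. Its B and plasma cell markers summed to 16.7 RPKM, against 3.84 to 10.1 RPKM in old mice, and 11 of 12 had a higher mean in old-OSKM mice, none of them called. With age these lists went the other way from the licensing genes. All 10 T cell markers had a higher mean in old than in young mice (median 0.50). So did 10 of 12 B and plasma cell markers (median 0.61), of which Jchain was called, at 2.35 (limma adjusted p = 0.551). Macrophage markers summed to 50.1 RPKM in JCX1025, to 40.1 RPKM in JCX1011, the lowest old-OSKM mouse in 7 of the licensing genes, and to 12.3 to 21 RPKM in old mice. All 10 macrophage markers had a higher mean in old-OSKM than in old mice, and C1qc, a complement subunit made by macrophages, rose by 1.02 (limma adjusted p = 0.547). With age 9 of the 10 had a lower mean (median -0.19). Islet markers summed to 78 RPKM in JCX1025, 160 RPKM in JCX1027, 114 RPKM in JXC384 and 490 RPKM in JCX1011, against 167 to 382 RPKM in old mice. All 10 islet markers had a lower mean in old-OSKM than in old mice (median -0.51), none of them called. With age 7 of the 10 islet markers had a higher mean (median 0.29). The part of these cells in the licensing genes was not tested. Without JCX1025 the difference of Mcm5 between old-OSKM and old mice was 0.74 and the mean difference of the 10 genes was 0.43, against 0.58 with it.

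Fibroblast markers were highest in another mouse, JCX1011, at 74.2 RPKM against 21.4 to 27.3 RPKM in old mice. As a list they went the same way as the licensing genes in both comparisons. With age the mean of all 8 fibroblast and stellate markers fell (median -0.36). With the pulse it rose for 7 of the 8 (median 0.63). Col1a1 and Col3a1, collagens of fibroblasts and stellate cells, fell by 0.93 and 1.04 with age (limma adjusted p = 0.469 and 0.511), and Col1a1 and Col1a2 rose by 0.88 and 0.89 in old-OSKM mice (limma adjusted p = 0.547 for both). JCX1011 also had the highest endothelial (24.4 RPKM) and erythroid (70.9 RPKM) marker sums of all mice. Of 8 endothelial markers, the mean of 7 fell with age (median -0.27) and that of all 8 rose with the pulse (median 0.30). None of the endothelial markers was called in either comparison. Whether fibroblasts or endothelial cells had a part in the licensing genes was not tested. JCX1027, the other old-OSKM mouse with high licensing genes, had T cell markers at 1.59 RPKM and macrophage markers at 18.4 RPKM, both within the range of the old mice.

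**Figure D5:**
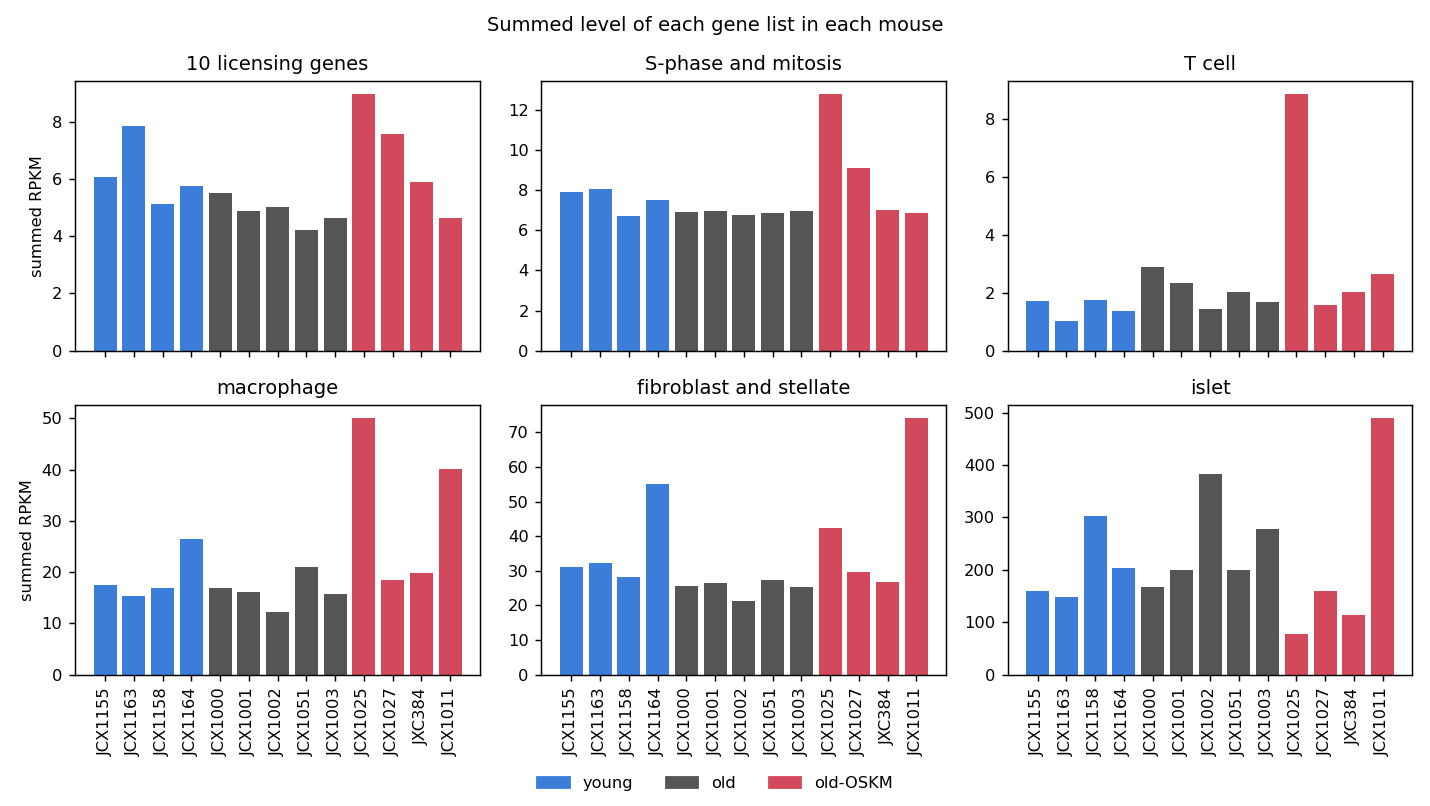
Summed level in RPKM (vertical axis, from 0) of the 10 licensing genes and of 5 marker lists in each of the 13 mice (horizontal axis), coloured by group. JCX1025 has the tallest bar for the licensing genes (8.97 RPKM), S-phase and mitosis, T cell and macrophage markers, JCX1027 is above the old mice in the licensing (7.57 RPKM) and S-phase panels but within their range for T cells and macrophages, the young mouse JCX1163 reaches 7.84 RPKM for the licensing genes, and JCX1011 has macrophage markers at 40.1 RPKM.

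The sample identifiers in the labels fell into a run from 609 to 621, with 2 young, 4 old and 4 old-OSKM mice, and a run from 641 to 643, with 2 young, 1 old and no old-OSKM mice. What the runs stand for is not stated. Within the first run the mean difference of the 10 genes was -0.68 with age and 0.56 with the pulse. There Cdc6 was called as lower with age (-1.41) and Mcm5 was no longer called in old-OSKM against old mice (0.99). Without the 3 mice least correlated with the others (JCX1011, JCX1158 and JCX1025) the mean differences were -0.60 and 0.61, Mcm6 was called with age (-0.65) and Mcm5 was not called with the pulse (0.93).

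Several licensing genes have a close neighbour on the other strand, and the library kit named in the labels does not mark strand, so reads from an overlap cannot be assigned by strand. The starts of Mcm4 and of Prkdc lie 466 bases apart, those of Mcm7 and Ap4m1 420 bases and those of Cdc45 and Ufd1 208 bases apart. The Mcm7 and Ap4m1 genes overlap by 421 bases and the Cdc45 and Ufd1 genes by 209 bases. Neither comparison called these neighbours. Prkdc differed by 0.04 with age and 0.13 with the pulse, Ap4m1 by 0.00 and -0.10, and Ufd1 by -0.12 and 0.01. Mcm7 also overlaps Cops6 by 64 bases (differences of 0.10 with age and -0.14 with the pulse) and hosts the microRNA genes Mir25, Mir93 and Mir106b, whose rows share its transcribed region. Those rows differed by -0.20, -0.21 and -0.20 with the pulse, where Mcm7 differed by 0.16, and none of them was called. Mcm5 (Entrez 17218, chr8:75109468-75128439) and Mcm6 (Entrez 17219, chr1:128331575-128359705) had no such neighbour within 1000 bases on the other strand.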

How the data were processed

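Pancreas RNA of 13 mice was depleted of ribosomal RNA and sequenced with paired ends. The authors aligned reads to mm10 with STAR 2.3.0e, estimated RPKM per isoform with the R package Casper, aggregated it by Entrez gene, and deposited log2 RPKM values that had been quantile normalized. These were analysed as they stand, without adding a pseudocount or removing low genes. A correction for read totals, named in the study's methods, appears not to be in the values, since their sorted values differ between mice by at most 0.0116. Neither counts nor read totals accompany them, so the depth of each mouse and the counting error of each value are unknown. Quantile normalization forces the same distribution on each mouse, so a shift shared by most genes cannot be seen.

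Groups were taken from the condition in the labels. A single limma model (limma 3.58.1 under R 4.3.3, default lmFit and eBayes) was fitted to all 23366 genes, 23273 of them with a symbol, with a mean for each of the 3 groups, no covariate and two-sided contrasts. Calls required both an unadjusted p below 0.01 and a fold change above 1.5. Adjustment by the Benjamini-Hochberg method covered every gene. The p-values measure the spread between mice. The fit was tested on simulated data. The members and gene lists were chosen with earlier results of these data known. The genes to name outside the set were those called in each list, the 2 of each replication list with the smallest unadjusted p, the 10 most correlated genes and the cassette factors. Not all of them are discussed. For example, the B and T cell markers Cd79b, Ms4a1 and Cd3g were called in old-OSKM against young mice only. Positions and promoters are those of RefSeq GRCm38.p6, and neighbours those of GENCODE M21. Alternatives repeated the quantile normalization, centred each mouse on its median, kept only genes with a mean log2 RPKM above -1, added a pseudocount of 1 or of 0.1, fitted 2 groups at a time, used eBayes with trend and robust options, took the run of identifiers or the mean z-score of all genes as a covariate, or left out each mouse in turn. Leaving out the 3 mice least correlated with the others and using only the first run of identifiers were added after seeing the data. Python 3.11.15 with matplotlib 3.10.9 drew the figures.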

Additional observations from a re-analysis of the deposited data

Results flagged for a closer look

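Of 33 groups of mice examined (each licensing gene and the mean of the 10 in each group), 3 held a mouse whose distance to its nearest neighbour took up more of the group's range than Dixon's 95% critical value, where chance gives about 1 in 20. Mcm2 in the old-OSKM mouse JCX1011 was at -0.75 log2 RPKM, and its gap was 0.98 of the range. Without this mouse the difference of Mcm2 between old-OSKM and old mice was 0.42, against 0.10 with it. Mcm5 in the young mouse JCX1163 was at -0.76, with a gap of 0.93 of the range. Cdc45 in the old mouse JCX1002 was at -3.41, with a gap of 0.78 of the range. Each is the value of a single library, and no repeat library of these mice entered the analysis.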

How the results depend on the processing

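Between old and young mice no licensing gene was called, and 1 was called with the 2 groups alone (Mcm6), with the 3 least correlated mice left out (Mcm6) and within the first run of identifiers (Cdc6). With each mouse left out in turn the count ran from 0 to 1. Between old-OSKM and old mice the count of 1 became 0 with a pseudocount of 1, with the 2 groups alone, with the run of identifiers or the mean z-score of all genes as a covariate, with the 3 least correlated mice left out and within the first run, and it ran from 0 to 2 with each mouse left out. In the 13 fits with a mouse left out, Mcm5 ran from 0.74 to 1.24. With the filter on low values Mcm5 was not tested and Mcm6 was called. Between old-OSKM and young mice it was 0 in every fit. The mean difference of the 10 genes was -0.44 with age (-0.60 to -0.29 with a mouse left out, -0.12 with a pseudocount of 1), 0.58 with the pulse (0.43 to 0.74, and 0.17) and 0.14 for old-OSKM against young mice (-0.02 to 0.30). Of 234 member values per comparison under the alternatives, none changed sign with age, 3 did with the pulse (all Mcm2) and 26 did between old-OSKM and young mice, none of them called.

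Over all genes the count called was 207 with age, and 78 with the filter on low values, 16 with a pseudocount of 1, 116 with a pseudocount of 0.1, 340 without the 3 least correlated mice and 175 to 280 with a mouse left out. With the pulse it was 176, and 62, 2, 77 and 115 under the same alternatives, 90 with the mean z-score as a covariate (51 higher, 39 lower, against 136 and 40), and 94 (without JCX1025) to 338 (without JCX1027) with a mouse left out. Without the 3 least correlated mice 45 were higher and 70 lower. Between old-OSKM and young mice it was 146, and 40, 8, 76 and 121 to 253. The filter tests fewer genes and a pseudocount shrinks differences of low values; otherwise the cause was not tested. The alternatives without the 3 mice and within the first run were chosen after seeing the data. No paired analysis was possible because each library came from a different mouse, which belonged to a single group. With no counts, depth sets an unknown limit on low genes such as Mcm10 and Cdc6.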
